A study of Mus musculus with 176 samples.

Results

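Penk, the gene of the enkephalin precursor, is 1 of the 53546 gene names in a table of reads per gene for 176 single mouse CD4 T cells. The gene was followed from cell to cell, and a cell was called Penk-holding where it had 10 or more Penk reads. Of the 161 cells that passed the quality limits, 12 were Penk-holding, 5 sorted as P6+ and 7 sorted as P6-. Because the cells were picked by their Penk reads, and Foxp3, Klrg1, Il2ra, Tnfrsf9 and Trbv13-2 were named for what was already seen in them, the values of these 6 genes are a description without a test.

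The cells came from female mice of the inbred strain C57BL/6J, with no engineered allele, that were given the apolipoprotein B peptide P6 in complete Freund's adjuvant at 7 weeks of age and in incomplete Freund's adjuvant at 9 weeks. Lymph nodes were taken at 11 weeks, and CD44hi CD4 T cells were sorted singly as binding the P6:I-Ab tetramer (P6+, 32 cells) or not binding it (P6-, the rest of the 176 cells), so both groups share the immunization and differ by tetramer binding. The P6+ cells were drawn from 1 mouse, and the labels name no animal for any cell, so each group counts as 1 sample and no p-value is given. Libraries followed the full-length Smart-Seq2 method, which carries no molecular identifiers, so every interval below covers counting error only. All 32 P6+ cells and all but 15 of the P6- cells passed 500000 reads, 2000 genes and a mitochondrial share under 10%. Reads ran from 956280 to 3332191 per P6+ cell and from 522188 to 3401372 per P6- cell. The study also set a limit on the mapping rate, which counts do not give and which was not applied here. It kept fewer P6- cells, so the passing P6- cells include some that it discarded. Whether Penk-holding P6- cells are among those is not known here. The cell names carry 8 leading numbers, and every P6+ cell bears the number 6, together with 12 P6- cells, 11 of them passing. The mitochondrial share was also lower in P6+ cells, with a median of 1.29% against 3.56% in P6- cells.

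Preproenkephalin, the protein that Penk encodes, is cut in the secretory pathway by prohormone convertases at pairs of basic residues, and a carboxypeptidase then trims the pieces to Met-enkephalin and Leu-enkephalin, short opioid peptides that act mainly on delta and mu opioid receptors. Neurons and adrenal chromaffin cells are the classical sources, and activated T cells, regulatory T (Treg) cells among them, are also known to transcribe the gene. Treg cells are CD4 T cells that restrain immune responses and are defined by the transcription factor Foxp3.

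In GRCm38, the build of the counts, Penk lies on chromosome 4 from 4133531 to 4138819 on the minus strand (ENSMUSG00000045573). Its coding transcript has 2 exons, and the exons of all its transcripts cover 1634 bases. A non-coding gene on the other strand, A830012C17Rik, shares 499 bases with the Penk gene, and held at most 5 reads in any passing cell. The coding sequence of 807 bases, read from the GENCODE M21 transcripts, spells 7 enkephalin units, 6 of Met-enkephalin and 1 of Leu-enkephalin, all of them in exon 2. All 7 are preceded by codons for a pair of basic residues and 5 are followed by such a pair. The units below are those of an ordinary Met-enkephalin, the Leu-enkephalin and the last Met-enkephalin, which has no basic pair after it. They are shown because these are the peptides that the counted transcripts encode. Capitals mark the 15 bases that code for the enkephalin core, and 6 bases stand in lower case on each side, written 5′ to 3′ on the coding strand.

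Met-enkephalin unit 2, chr4:4134307-4134333, minus strand: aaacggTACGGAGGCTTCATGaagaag
Leu-enkephalin unit 6, chr4:4133935-4133961, minus strand: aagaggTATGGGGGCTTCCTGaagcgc
Met-enkephalin unit 7, chr4:4133842-4133868, minus strand: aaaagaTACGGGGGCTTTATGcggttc

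The 7 cores use 6 different spellings. The reads were counted per gene, so the values below do not separate the units.

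Penk reads were split into a few very high cells and a large majority near 0. Among P6+ cells, 5 of 32 (15.6%, exact binomial 95% interval 5.28 to 32.8%) were Penk-holding, with 1339 to 30299 reads each, while the other 27 had between 1 and 7. Among P6- cells, 7 cells (5.43% of those passing, 2.21 to 10.9%) were Penk-holding, with 81 to 21048 reads each, while 47 had 1 to 8 reads and 75 had 0. No passing cell had a value between 8 and 81 reads, so the limit of 10 fell in an empty range, and among the cells that failed the quality limits 0 reached it.

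Pooled over cells, Penk stood at 896 counts per 1000000 reads (cpm; exact Poisson 95% interval 888 to 903) in P6+ cells and at 248 cpm (246 to 250) in P6- cells. The log2 ratio of these levels was 1.85 with a pseudocount of 1 cpm, which is below the 4-fold limit (with 20 cpm in the higher group) that 10.8% of all genes tested passed upwards and 15.6% downwards. Single cells carried both levels. The 5 Penk-holding P6+ cells gave 99.9% of the P6+ reads and the highest of them 57%, and without that cell the P6+ level was 405 cpm and the log2 ratio 0.71. Against the 11 passing P6- cells that share the leading number of the P6+ cells, at 1.23 cpm, the log2 ratio was 8.65, which is past the 4-fold limit. In P6- cells, the 7 Penk-holding cells gave 99.8% of the reads and the highest of them 41.6%. The other cells stood at 1.47 cpm in the P6+ group and 0.506 cpm in the P6- group.

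**Figure D1:**
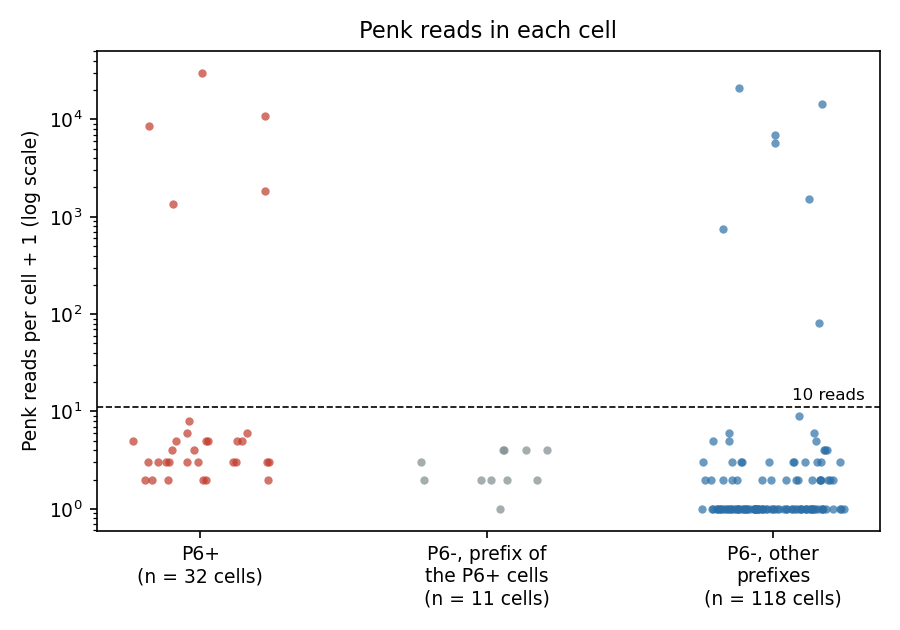
Penk reads in each of the 161 passing cells, on a log scale of reads + 1 with horizontal scatter added only to separate points. Each point is a cell, grouped as P6+, P6- with the leading number of the P6+ cells, and P6- with other leading numbers. The dashed line marks 10 reads. The 5 P6+ and 7 P6- cells above the line stand apart from all others, which have at most 8 reads.

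The P6+ cells could be set beside P6- cells of the same leading number only in part. Of the 11 passing P6- cells named with the number 6, 0 were Penk-holding, for which the exact interval reaches up to 28.5%, so a share like that of the P6+ cells was not detectable as a difference with these cells. Low Penk counts varied with the leading number. Over all 176 cells, 38 of the 44 cells numbered 6 had 1 to 9 reads and only 1 had 0, and the 11 passing P6- cells among them stood at 1.23 cpm, near the 1.47 cpm of the P6+ cells that were not Penk-holding. At the other extreme, 0 of the 20 cells numbered 4 had 1 to 9 reads and 19 had 0. The Penk-holding cells numbered 6 held 53080 Penk reads in all, against 42382 in number 3, 5772 in number 2, 2258 in number 8, and 81 in number 4. In number 3, 7 of 24 cells had 1 to 9 reads, and in number 8 it was 16 of 24. The numbers 5, 7 and 9 had no Penk-holding cell, and 9 of 20, 7 of 16 and 3 of 16 of their cells had 1 to 9 reads. The part of the leading number in these low counts was not tested.

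**Figure D2:**
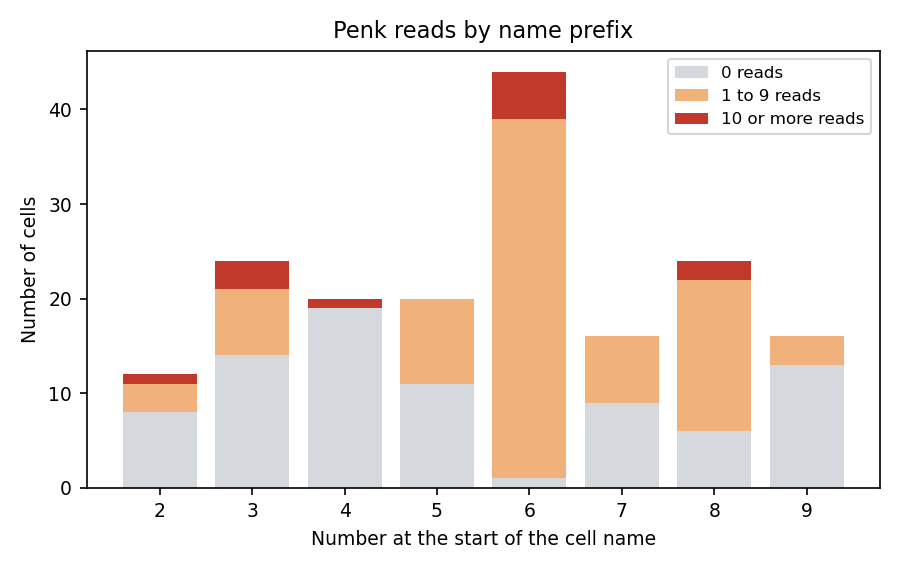
Number of cells (vertical axis) with 0, 1 to 9, and 10 or more Penk reads for each leading number of the cell name (horizontal axis), over all 176 cells. Bars are stacked counts. The 12 Penk-holding cells fall in the numbers 2, 3, 4, 6 and 8, and cells with 1 to 9 reads make up 38 of 44 cells numbered 6.

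The depth of the Penk-holding cells was within that of the rest. They held 1087117 to 2931944 reads and a median of 4070 genes, against a median of 3585 genes in the other 149 cells. Ranked by reads per exonic length within a cell, Penk stood within the first 22 genes in 7 of the 12 cells and at rank 154 to 1090 in the other 5.

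P6+ cell 8 held the most Penk of any cell, 30299 reads or 10334 cpm, at rank 4 of its genes per length. It combined Klrg1 (3655 reads), Il2ra (3455), Tnfrsf9 (8177) and Trbv13-2 (667) with 0 reads of Foxp3. P6+ cell 20 had 10943 Penk reads (rank 5) and was the only Penk-holding cell with Foxp3 (470 reads), Il2ra (999) and Tnfrsf9 (4464) together. Klrg1, an inhibitory receptor of differentiated effector T cells, was at 1 read in it.

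P6+ cell 31 had 8641 Penk reads (rank 9), with Klrg1 at 3942 reads, Tnfrsf9 at 2338, Foxp3 at 2 and Il2ra at 0. In P6+ cell 7, Penk was lower at 1858 reads (rank 157), while Foxp3 (3155 reads) and Klrg1 (7691) were high and Il2ra, the alpha chain of the interleukin-2 receptor, was at 0. P6+ cell 15 had 1339 Penk reads (rank 154), Klrg1 at 4652, Il2ra at 264 and Foxp3 at 0. The 5 P6+ cells thus carried the 5 genes in 5 different combinations, and shared only Trbv13-2, with 92 to 667 reads.

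Among P6- cells, the highest Penk was in cell 19, with 21048 reads or 8556 cpm (rank 10). Of the 5 genes it held only Tnfrsf9, the costimulatory receptor 4-1BB, at 250 reads. Its Cd3d, Cd3e and Cd3g, subunits of the T cell receptor complex, had 3, 3 and 5 reads, whereas each of the other 11 cells had 10 or more reads of at least 1 of them. It had 8416 reads of Tbx21, the T helper 1 transcription factor, against at most 2 in the other 11, and its mitochondrial share of 6.16% was the highest of the 12. P6- cell 14 was next with 14380 Penk reads (rank 6), and of the 5 genes it too held only Tnfrsf9, at 3010 reads.

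P6- cell 13 had 6954 Penk reads (rank 11), and held Klrg1 (1385), Il2ra (269), Tnfrsf9 (82) and Trbv13-2 (341). P6- cell 7 had 5772 Penk reads (rank 22), with Klrg1 at 3612 reads, Il2ra at 834 and Tnfrsf9 at 1035. These 2 cells and P6+ cell 8 held Klrg1, Il2ra and Tnfrsf9 together and had no Foxp3 read.

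The remaining P6- cells had less Penk. In the P6- cell with 1510 Penk reads (rank 172), only Trbv13-2 of the 5 genes was held, at 937 reads, beside 4455 reads of Tcf7, a transcription factor of naive and memory T cells. The next, with 748 Penk reads (rank 352), had Klrg1 at 1818, Tnfrsf9 at 7483 and Trbv13-2 at 252. P6- cell 53, the closest to the limit, had 81 Penk reads (rank 1090) and held Tnfrsf9 at 931 reads.

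**Figure D3:**
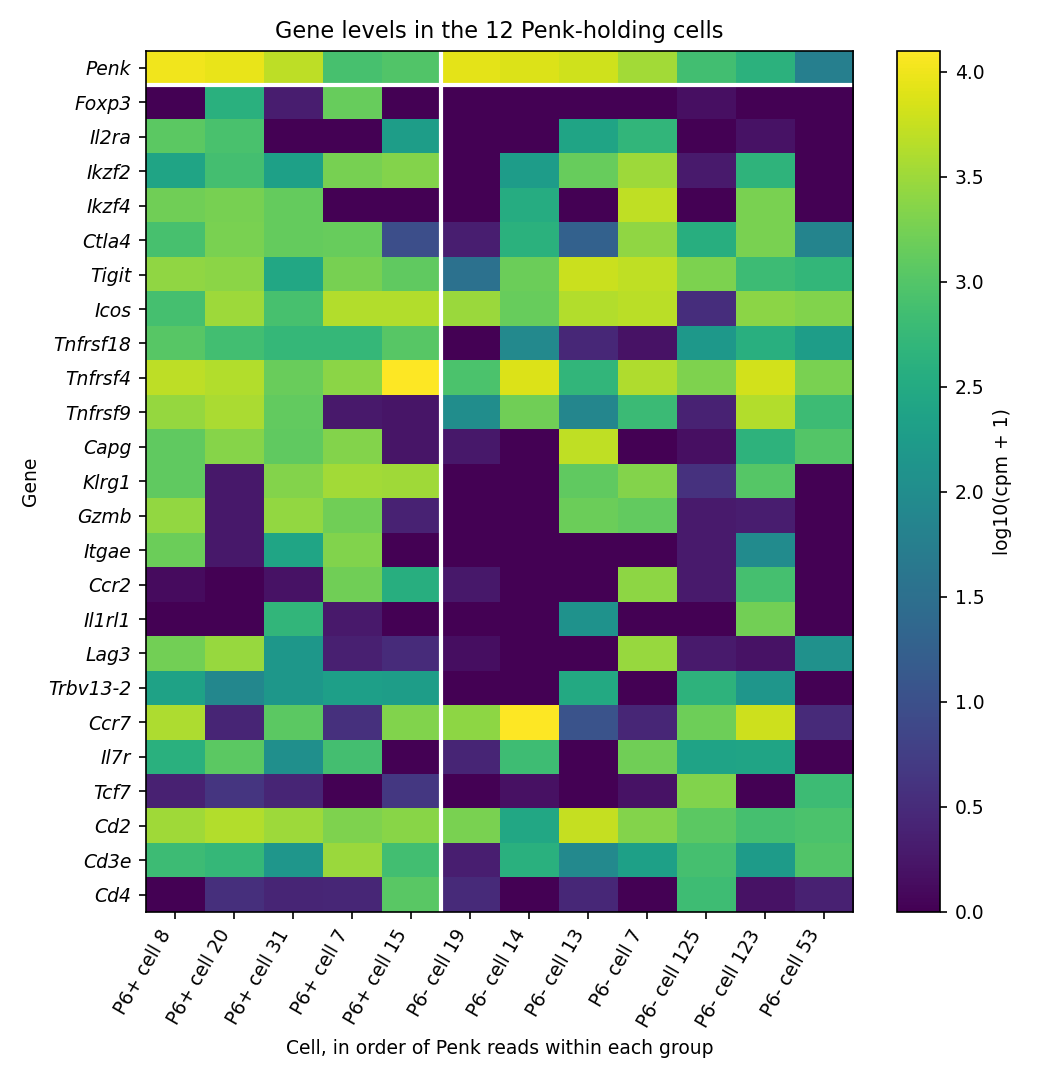
Levels of Penk and of genes from the lists and the rule (rows) in the 12 Penk-holding cells (columns), as log10(cpm + 1). Columns run from high to low Penk within the P6+ and the P6- cells, with a white line between them, and colour gives the level. Tigit and Tnfrsf4 have 10 or more reads in all 12 cells, while Foxp3 reaches 10 reads in P6+ cells 20 and 7 only.

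Foxp3 was absent from most Penk-holding cells at the limit of 10 reads. At 10 or more reads, Foxp3 was in 2 of 5 Penk-holding and 9 of 27 other P6+ cells, and in 0 of 7 Penk-holding and 19 (15.6%) of the other P6- cells, where the exact interval of 0 of 7 reaches up to 41%. Counted the other way, Penk was held by 2 of the 30 passing cells with Foxp3 and by 10 of the cells without it.

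Klrg1 was in 4 of 5 Penk-holding and 15 of 27 other P6+ cells, and in 3 of 7 Penk-holding P6- cells (42.9%, 9.90 to 81.6%) against 7 (5.74%, 2.34 to 11.5%) of the other P6- cells. Tnfrsf9 was in 3 of 5 against 14 of 27 P6+ cells, and in 6 of 7 (85.7%, 42.1 to 99.6%) P6- cells against 20 (16.4%, 10.3 to 24.2%) of the other P6- cells. For Il2ra the counts were 3 of 5 against 9 of 27 and 2 of 7 against 17 (13.9%).

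Klrg1 without Foxp3 was held by 3 of 5 Penk-holding and 8 of 27 other P6+ cells, and by 3 of 7 Penk-holding and 1 (0.820%) of the other P6- cells. Each of the 12 Penk-holding cells held at least 1 of the 5 genes, while 71 (58.2%) of the other P6- cells and 8 of 27 other P6+ cells held 0.

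Trbv13-2, a variable segment of the T cell receptor beta chain, was in all 5 Penk-holding P6+ cells and in 11 of the other 27 (40.7%, 22.4 to 61.2%). Of the 16 P6+ cells with Trbv13-2, 5 were Penk-holding, and of the 16 without it, 0. In P6- cells, it was in 3 of 7 Penk-holding and 23 (18.9%) of the other cells. Cells that share a receptor segment can descend from the same clone, so these cells need not be independent.

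**Figure D4:**
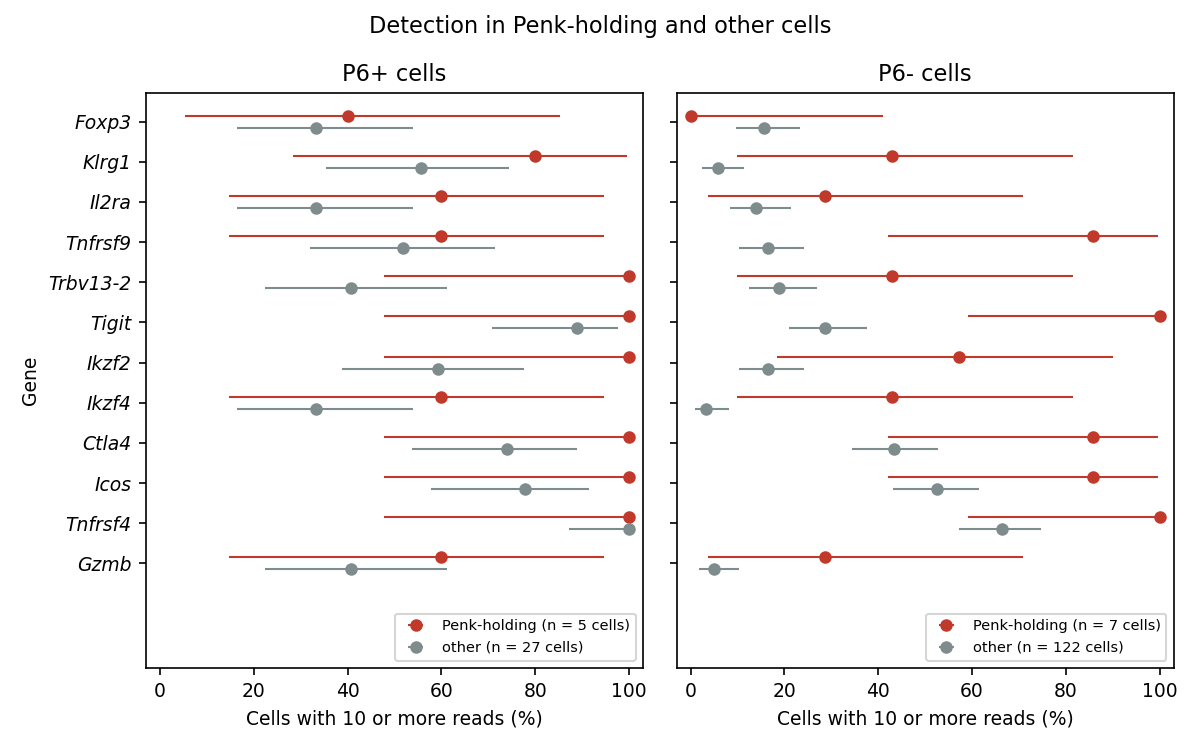
Share of cells (horizontal axis, percent) with 10 or more reads of each gene (vertical axis) among Penk-holding cells (red) and other cells (grey), for P6+ cells on the left and P6- cells on the right. Points are shares and lines are exact binomial 95% intervals, which cover counting error only. The genes are those of the rule and list genes picked after their values were seen. In P6- cells the shares of Penk-holding cells run from 0 for Foxp3 to 100% for Tigit and Tnfrsf4, with intervals that are wide in both groups.

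Beyond the genes named at the outset, 13 core genes of Treg cells were counted in every cell, which leaves Foxp3, Il2ra and Tnfrsf9 out of that list. Penk-holding P6+ cells had 8 to 10 of them at 10 or more reads (median 9), within the 1 to 11 (median 8) of the other P6+ cells. Penk-holding P6- cells had 3 to 11 (median 7), within the 0 to 11 (median 3) of the other P6- cells. The inhibitory receptor Tigit was in all 12 Penk-holding cells, with 80 to 8651 reads. Tigit was in 24 of 27 other P6+ cells and in 35 (28.7%, 20.9 to 37.6%) of the other P6- cells, against 7 of 7 Penk-holding P6- cells (interval from 59%). Tnfrsf4, the costimulatory receptor OX40, was also in all 12, with 533 to 17335 reads, and in 27 of 27 other P6+ cells and 66.4% of the other P6- cells.

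The coinhibitory receptor Ctla4 was in 5 of 5 Penk-holding against 20 of 27 other P6+ cells, and in 6 of 7 against 53 (43.4%) of the other P6- cells. For the costimulator Icos the counts were 5 of 5 against 21 of 27 and 6 of 7 against 64 (52.5%). Ikzf2, encoding the Treg transcription factor Helios, was in 5 of 5 against 16 of 27 P6+ cells and in 4 of 7 against 20 (16.4%) P6- cells. Izumo1r, the folate receptor 4 of Treg cells, went the other way in P6+ cells, at 2 of 5 against 19 of 27. In P6- cells it was in 2 of 7 against 41 (33.6%). Nrp1 was in 0 of 12 Penk-holding cells against 8 of 149 others. The exact interval of 0 of 12 reaches up to 26.5%, so these counts show no direction for Nrp1. Ikzf4, a relative of Ikzf2 that encodes Eos, was in 3 of 5 against 9 of 27 P6+ cells, and in P6- cells in 3 of 7 (42.9%, 9.90 to 81.6%) against 4 (3.28%, 0.900 to 8.18%) of the others. Ikzf2 and Ikzf4 were also held by Penk-holding cells without a Foxp3 read, such as P6- cell 7 with 5230 reads of Ikzf2 and 8392 of Ikzf4.

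Pooled levels of all genes were then set side by side, with a gene called at a 4-fold or larger ratio and 20 cpm in the higher pool. Of 6521 genes tested in P6+ cells, 13.7% were called higher and 45.9% lower in the 5 Penk-holding cells than in the 27 others, with a median log2 ratio of -1.16. In P6- cells, 11.1% of 6784 genes were called higher and 44.4% lower, with a median of -1.21. The counts of the lists are read against these shares.

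The genes of the rule were left out of these counts, since they were chosen for their values in these cells. Of 11 other core Treg genes tested in P6+ cells, 0 were called higher and 2 lower (Lrrc32 and Izumo1r), and the list's median log2 ratio was 0.55. In P6- cells, 1 of 13 was called higher (Ikzf4) and 2 lower (Nrp1 and Gpr83), with a median of 0.54. Gpr83 reached 10 reads in 0 Penk-holding cells and in 1 of the 149 others. The list medians lay above those of all genes in both groups, while the calls upwards, 0 of 11 and 1 of 13, did not exceed the background shares. A median above that of all genes was not particular to the Treg list. Naive genes had medians of 0.0004 in P6+ and -0.02 in P6- cells, and CD4 T cell markers of -1.06 and -0.17. Follicular helper genes lay below, at -6.21 and -2.59. Leaving out each Penk-holding cell in turn gave list medians of 0.45 to 0.72 in P6+ cells and of 0.19 to 0.78 in P6- cells. In P6- cells 3 of 13 genes were then called higher without P6- cell 14, 19 or 53 or the P6- cell with 748 Penk reads, and 2 without the one with 1510. The median of all genes moved further, to -4.16 without P6+ cell 31, -2.15 without P6+ cell 8, -2.12 without P6+ cell 20 and -1.84 without P6+ cell 7, and to -2.42 without P6- cell 14. As a description, the rule's Tnfrsf9 stood at 1036 cpm in Penk-holding and 217 cpm in other P6- cells, and its Klrg1 at 552 cpm against 77.3 cpm.

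The list of effector Treg genes, without Klrg1, gave more calls in P6- cells. There, 5 of 15 tested were called higher (Il1rl1, Gata3, Ccr2, Pdcd1 and Lag3) and 4 lower (Areg, Itgae, Ccr4 and Prdm1), with a median of 1.09. For these 5, from 1 to 3 of the 7 cells held the gene, and a single cell gave 75.9 to 99.9% of its reads. Gata3, the T helper 2 transcription factor, came to 99.9% from P6- cell 19. The call count fell to 3 of 15 without P6- cell 7, with a median of 0.19, and to 3 of 15 without the P6- cell with 748 Penk reads, with a median of -0.39. The median was 0.49 without P6- cell 13, 0.59 without P6- cell 14 and 0.68 without P6- cell 19. In P6+ cells, Ebi3, a subunit of interleukin-35, was called higher of 16 tested and Entpd1 lower, with a median of 0.94, which became 0.15 without P6+ cell 7. From 0 to 3 genes were called higher there when each cell was left out. Ebi3 was in 3 of 5 Penk-holding and 2 of 27 other P6+ cells, a log2 ratio of the pooled levels of 2.19. In the P6- cells it was in 0 of 7 Penk-holding cells and 3 (2.46%) of the others.

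Among 7 receptors of the TNF family without Tnfrsf9, 0 were called higher and 2 lower in Penk-holding P6+ cells, and 1 higher (Tnfrsf8) and 2 lower in Penk-holding P6- cells. The P6- cell with 748 Penk reads gave 99.9% of those Tnfrsf8 reads, and without it 0 of 6 were called higher. Of the genes of naive T cells, Il7r was called higher and Tcf7 lower in P6+ cells, and Lef1 and S1pr1 lower in P6- cells. Lef1, a transcription factor of naive T cells, reached 10 reads in 0 of 12 Penk-holding cells and in 44 of 149 others. Il7r, the interleukin-7 receptor, was in 4 of 5 Penk-holding P6+ cells against 9 of 27.

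Transcription factors that the Penk promoter is known to respond to, of the AP-1, CREB, NF-kB and NFAT families, gave no call upwards in the Penk-holding cells of either sort. In P6+ cells 0 of 15 tested were called higher and 5 lower, and in P6- cells 0 of 18 higher and 5 lower. The calls downwards did not exceed the background shares of 45.9% and 44.4%. The list medians were -0.90 in P6+ and 0.19 in P6- cells, above the medians of all genes, -1.16 and -1.21. Fos, an immediate early gene of T cell activation, reached 10 reads in 0 of 12 Penk-holding and 14 of 149 other cells. Junb was in all 12, with 17 to 22917 reads, and in 87.9% of 149 others. Batf was in 4 of 5 Penk-holding against 10 of 27 other P6+ cells, and in 2 of 7 against 15 (12.3%) of the other P6- cells. For Jun the counts were 2 of 5 against 3 of 27 and 0 of 7 against 9 (7.38%).

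The rest of the enkephalin pathway was sparse in these cells. Of the other opioid precursors, Pdyn and Pnoc reached 10 reads in 0 passing cells, and Pomc, the precursor of beta-endorphin, at 549 reads in a single cell, the P6- cell with 1510 Penk reads. The receptors Oprd1, Oprk1 and Oprl1 reached 10 reads in 0 passing cells and the mu receptor Oprm1 in 1, a P6- cell that was not Penk-holding. Ogfr, which binds Met-enkephalin at the nucleus, was in 0 of 12 Penk-holding and 13 of 149 other cells.

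Of the convertases, Pcsk1 and Pcsk2, which cut the precursor in neuroendocrine cells, reached 10 reads in 0 passing cells. Furin, a convertase that most cells express, was in 3 of 12 Penk-holding cells, with 481 to 2779 reads in those, and in 30 of 149 others. Pcsk7 was in 0 of 12 against 17 of 149, and Cpe, the trimming carboxypeptidase, in 0 of 12 against 2 of 149. Of the enzymes that degrade enkephalin, Mme was in 0 passing cells, Dpp3 in 2 of 12 against 17 of 149, and Npepps in 2 of 12 against 10 of 149.

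Markers of T cells were present in the Penk-holding cells and those of most other cell types were not. Of 8 CD4 T cell markers, P6+ Penk-holding cells held 3 to 5 and P6- Penk-holding cells 4 to 7, against 1 to 8 and 0 to 8 in the other cells. Cd2 was in 12 of 12 and Cd3e in 11 of 12, with P6- cell 19 the exception. In P6+ cells, Cd28 was in 1 of 5 Penk-holding cells against 21 of 27 others, Thy1 in 0 of 5 against 5 of 27 and Cd5 in 1 of 5 against 19 of 27, and Cd28 and Thy1 were called lower. In P6- cells, 0 of the 8 markers were called in either direction. Cd4 itself, for which the cells were sorted as protein, reached 10 reads in 2 of 12 Penk-holding and 53 of 149 other cells. The markers of natural killer cells, B cells, myeloid cells and stromal cells, 16 genes in all, had at most 2 reads summed per list in any Penk-holding cell. Of the CD8 T cell markers, Cd8b1 reached 10 reads in the P6- cell with 748 Penk reads.

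Of the genes of other helper subsets, Tbx21 and Ifng were called higher of 3 tested in P6- cells, where P6- cell 19 gave 100% of the Tbx21 and 99.9% of the Ifng reads, and Tbx21 was called lower in P6+ cells. Of the follicular helper genes, 0 were called higher and Bcl6 and Cxcr5 were called lower in Penk-holding P6+ cells, and Cxcr5 in the P6- cells.

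Cells with Foxp3 were also compared among themselves, which keeps Foxp3 on both sides. Only P6+ cells 7 and 20 held both genes, against 28 cells with Foxp3 and under 10 Penk reads, 9 of them P6+ and 19 P6-. With a pool of 2 cells, 12.1% of 6070 genes were called higher and 65.4% lower, with a median log2 ratio of -4.96. Against the 9 P6+ cells alone, where all cells bind the tetramer, 847 of 5290 genes were called higher and 3203 (60.5%) lower, with a median of -4.72. Of the core Treg genes outside the rule, 0 of 11 were called higher and 1 lower (Lrrc32) with a median of 0.17, and against the 9 P6+ cells 0 of 12 higher and 1 lower with a median of -0.17. Of the effector Treg genes outside the rule, 5 of 19 were called higher (Ccr4, Il10, Tgfb1, Pdcd1 and Lag3), each from 1 of the 2 cells, and 4 lower, with a median of 0.72, which became -5.45 without P6+ cell 7 and -2.41 without P6+ cell 20. Against the 9 P6+ cells, 6 of 19 were called higher and 4 lower, with a median of 1.26, which became -4.96 without P6+ cell 7 and 0.37 without P6+ cell 20. Of 17 transcription factors, Jun was called higher, from 1 cell, and 10 were called lower. Of 8 naive genes, 7 were called lower, with a median of -7.01.

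After Penk itself, whose level chose the cells, the genes at the upper end of that comparison were Rasal1, Gdpd5, Tpcn2, Slc41a3, Zfp65, Galnt11 and Gtf2b. All of these but Gtf2b came from 1 of the 2 cells. The lower end included Samhd1, Hcls1, Ms4a6b, Tcp11l2, Satb1 and Eef1d, each in 0 of 2 Penk-holding cells and 14 to 19 of the 28 others.

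The genes whose level followed Penk most closely were ranked by Pearson's r of log2(cpm + 1) over the 161 cells, which share leading numbers, a range of depths and at least in part the animal, so r is a description. Over both sorts together, 0 of 8247 genes reached an r of 0.5 and 2 reached 0.4. The ranking depended on the cells taken: over P6+ cells alone the highest r was 0.76 and 0 of the first 10 genes were the same, and without the cell with the most Penk reads 5 of them were. Flad1, the enzyme that makes flavin adenine dinucleotide, came first at 0.46 and was held by 4 of 12 Penk-holding and 1 of 149 other cells. Ikzf4 followed at 0.41, and Tnfrsf9 at 0.38, Tigit at 0.38, Ikzf2 at 0.37, Cd74 at 0.36 and Klrg1 at 0.36 were also among the first 10. Foxp3 was at 0.03 and Il2ra at 0.20.

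The other members of the first 10 were AI413582 at 0.37 and the processed pseudogenes Gm7278 at 0.39 and Gm9115 at 0.38, for which reads of the parent genes cannot be told apart. Cd74, the invariant chain of antigen presentation, was in 8 of 12 Penk-holding cells against 23 of 149. The values differed between the sorts: Ikzf4 had an r of 0.27 over P6+ and 0.40 over P6- cells, Klrg1 of 0.18 and 0.33, and Cd74 of 0.45 and 0.24.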

How the data were processed

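Penk, the 5 genes of the rule and the gene lists were chosen with earlier results of these data known. The authors mapped reads with STAR 2.6.0a (per the submitters' processing notes) to GRCm38 and deposited raw read counts, with all cells kept and no scaling; the strand setting of the counting is not given in the sources used here. Rows of the 81 names listed more than once were averaged. All columns were matched to a label, and the deposited tetramer sign matched the label of 176 of 176 cells. Cells under 500000 reads or 2000 genes, or with 10% or more mitochondrial reads, were left out. The study's further limit on the mapping rate was not applied. Each cell is 1 library of 1 cell without a named animal, so no test was made. Pooled levels (cpm) are the summed reads of a gene over the summed depth of its cells, 1 cpm was added before log2 ratios were taken, and shares carry exact (Clopper-Pearson) intervals. A call needed a 4-fold ratio and 20 cpm in the higher pool. Scaling by edgeR 4.0.16 (TMM) and DESeq2 1.42.0 (size factors) used the pooled sums only, without a test. The pooled ratios and the ranking by r were tested on simulated data. Python 3.11.15, pandas 2.3.3, scipy 1.17.1 and Biopython 1.88 were used. No doublet caller was run, since each well received a single sorted cell.

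Genes were named by a written rule: Penk and the 5 genes of the rule; the opioid precursors, receptors, processing and degrading enzymes; examples from the lists of transcription factors, Treg, effector Treg, TNF receptor and naive genes with the largest and smallest ratios; the 10 genes with the highest r among those with 10 or more reads in 5 or more cells; and 8 genes from either end of the Foxp3-holding comparison. Tigit, Tnfrsf4, Ctla4, Icos, Ikzf2, Junb and Batf were picked as examples from those lists after their values were seen. Gene positions and the coding sequence came from GENCODE M21 on GRCm38. The comparison within P6- cells and the lists without the genes of the rule were added after seeing the data. A few genes that these rules would name are left out here.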

Additional observations from a re-analysis of the deposited data

How the results depend on the processing

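Of the alternative values for detection, Penk level, co-detection, call counts and like genes, 88 moved by less than their limit, 23 moved by more and 0 changed direction. List medians are not among them, and that of the effector Treg genes turned to -0.39 in P6- cells and to -5.45 and -2.41 in the Foxp3-holding comparison when single cells were left out. At 1 read or more, Penk was in 100% of P6+ and 41.9% of P6- cells, and the Penk-holding cells with Foxp3, Klrg1, Il2ra, Tnfrsf9 and Trbv13-2 numbered 20, 30, 21, 30 and 18 of 32 in P6+ cells and 26, 30, 25, 41 and 18 of 54 in P6- cells. In P6- cells of the shared leading number, 0.0% were Penk-holding and the log2 ratio of the Penk level was 8.65. That ratio was 1.92 without the cell filter, 1.94 as the mean of the cells' cpm, 1.46 without the highest cell of each group, 0.71 without the highest P6+ cell (added after seeing the data), 1.81 with a pseudocount of 10 and 1.81 with TMM factors. Of the first 10 genes like Penk, 3 were shared under Spearman's rho, 0 in P6+ cells alone and 5 without the cell with the most Penk reads. Leaving out each Penk-holding cell gave 831 to 876 genes called higher and 3093 to 3435 lower in P6+ cells (892 and 2990 with all 5), with a median of all genes of -4.16 to -1.45 (-1.16 with all 5), and 586 to 631 higher and 4490 to 4634 lower in the Foxp3-holding comparison (735 and 3969 with both). The causes of these moves were not tested. A limit of 50 reads, thinning to 500000 reads and leaving out P6- cell 19 (added after seeing the data) kept the detection and co-detection counts within their limits. No paired analysis was possible because the replicate numbers only name cells and the results come from no test. The Foxp3-holding comparison in P6- cells alone could not be run, since 0 Penk-holding P6- cells held Foxp3.

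The data hold 12 Penk-holding cells, so each share has a wide interval, and reads without molecular identifiers overstate the number of molecules. All P6+ cells share a leading number, which 11 passing P6- cells also bear, and no animal is named for the P6- cells. Full-length reads were counted per gene, and detection at 10 reads misses genes of low level.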
